A study of Drosophila melanogaster with 2 samples.

Results

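The 73 mRp genes encode proteins of the mitochondrial ribosome and were examined for binding of CG31365 at their start sites in Drosophila melanogaster embryos. They were chosen by symbol alone, as the protein-coding genes of the Ensembl BDGP6 annotation whose symbol is mRpL or mRpS followed by a number, out of 13945 protein-coding genes. Of these, 47 were large-subunit (mRpL) and 26 small-subunit (mRpS) genes. CG31365 carried a C-terminal GFP in a stably expressing transgenic line, and its sites were mapped by ChIP-seq, in which chromatin is sonicated, precipitated through a tagged protein and sequenced. Whole embryos aged 0 to 24 h, males and females pooled, gave 1 group of 2 biological replicates, which the labels number 2 and 3, so the peaks average over all embryonic cell types and ages. No group without the tagged protein was analysed here. For both libraries 1 free-text label reads input control while the assay, antibody and target fields describe ChIP, and the file listing shows peaks called against a separate control file.

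Mitochondrial ribosomes translate the few proteins encoded by mitochondrial DNA, which are core subunits of the respiratory chain and the ATP synthase. Their own proteins are encoded in the nucleus, made in the cytoplasm and imported. Proteins with low numbers mostly keep the names of their bacterial relatives, while those with higher numbers are found only in mitochondrial ribosomes.

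Binding was recorded as peaks, each with a summit (the position of highest signal) and a signal value, the authors' peak caller's own enrichment for that peak. The authors deposited 30000 peaks for each replicate, 30000 for both replicates pooled, and 2821 kept by the irreproducible discovery rate step (IDR peaks), which were the 2821 highest of the pooled list. A gene was counted as having a peak when a summit lay within 1000 bp of any of its start sites. Signal values were compared only within a list. Read depth is unknown, so the 95% Wilson intervals given here cover counting over genes only, and neighbouring genes that share a peak are not independent. Coordinates are on assembly dm6.

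The sequences at 5 of the 12 mRp genes with an IDR peak are shown first, the site of highest signal and 4 further intergenic sites between divergent starts, the commonest arrangement below. They were chosen after their values were seen and do not stand for all 12: mRpL18, mRpL41, mRpL23 and mRpL2, with higher signals than the last pair, are described below without sequence. The sequence is from the RefSeq copy of the assembly, read 5′ to 3′ in the direction of the mRp gene. For mRpL13 these are the 250 bases before its start, with the summit at position 140. Capitals mark the 4 copies of ACTGCTT, the reverse complement of AAGCAGT, a word within 100 bp of 13.6% of IDR summits at protein-coding starts and of 2.92% of start-site summits outside the IDR intervals.
mRpL13, chr2L:18859249-18859498, minus strand: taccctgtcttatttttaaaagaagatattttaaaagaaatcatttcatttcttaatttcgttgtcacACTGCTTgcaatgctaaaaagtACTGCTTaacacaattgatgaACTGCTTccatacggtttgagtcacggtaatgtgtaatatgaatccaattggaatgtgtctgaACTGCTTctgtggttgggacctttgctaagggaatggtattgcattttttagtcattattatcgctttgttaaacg
For the other 4 genes, capitals mark the 11 bases centred on the summit. The mRpS23 stretch reaches 100 bases to each side of the summit, and the other 3 are the whole intervals between the start of the mRp gene and that of its divergent neighbour, Art3, betaggt-I or Mon1.
mRpS23, chr2L:13835357-13835557, minus strand: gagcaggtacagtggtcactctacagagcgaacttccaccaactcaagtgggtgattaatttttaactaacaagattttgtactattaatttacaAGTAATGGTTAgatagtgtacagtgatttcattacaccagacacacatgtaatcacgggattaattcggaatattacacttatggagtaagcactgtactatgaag
mRpS10, chr3R:15229409-15229664, plus strand: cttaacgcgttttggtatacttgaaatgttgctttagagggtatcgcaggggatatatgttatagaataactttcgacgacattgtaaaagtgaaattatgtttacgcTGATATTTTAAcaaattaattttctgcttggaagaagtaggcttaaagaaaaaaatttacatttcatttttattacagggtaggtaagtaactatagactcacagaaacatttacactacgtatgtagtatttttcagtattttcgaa
mRpL24, chr2L:4945362-4945578, minus strand: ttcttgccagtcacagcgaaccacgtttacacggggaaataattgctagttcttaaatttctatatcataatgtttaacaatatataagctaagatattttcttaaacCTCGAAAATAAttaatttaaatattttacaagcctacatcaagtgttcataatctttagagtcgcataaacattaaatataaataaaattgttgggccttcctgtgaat
mRpS2, chr2L:4850420-4850640, minus strand: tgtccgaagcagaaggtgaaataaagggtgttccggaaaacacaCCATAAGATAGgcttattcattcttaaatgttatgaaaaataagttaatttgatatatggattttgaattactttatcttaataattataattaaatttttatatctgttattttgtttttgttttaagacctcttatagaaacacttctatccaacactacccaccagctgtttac
None of these 4 stretches holds AAGCAGT on either strand. That says only that these letters are missing from these stretches.

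The share of mRp genes with a CG31365 peak at a start site was near that of all genes. An IDR peak was found at 12 of 73 mRp genes (16.4%, 95% Wilson interval 9.66 to 26.6), against 13.9% of all protein-coding genes (1938 of 13945). In the larger pooled list, 48 of 73 mRp genes (65.8%, 54.3 to 75.6) had a peak, against 55.6% of all protein-coding genes. Both backgrounds lie inside the mRp intervals, so neither share was a result about the mRp genes. The cytoplasmic ribosomal protein genes, which build the ribosome outside mitochondria, stood elsewhere in the same list, with an IDR peak at 74 of 93 (79.6%, 70.3 to 86.5). The mRp and cytoplasmic intervals do not overlap. mRp genes are short, with a median length of 909 bp against 2166 bp for all protein-coding genes, and both groups had a median of 1 start site per gene.

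**Figure D1:**
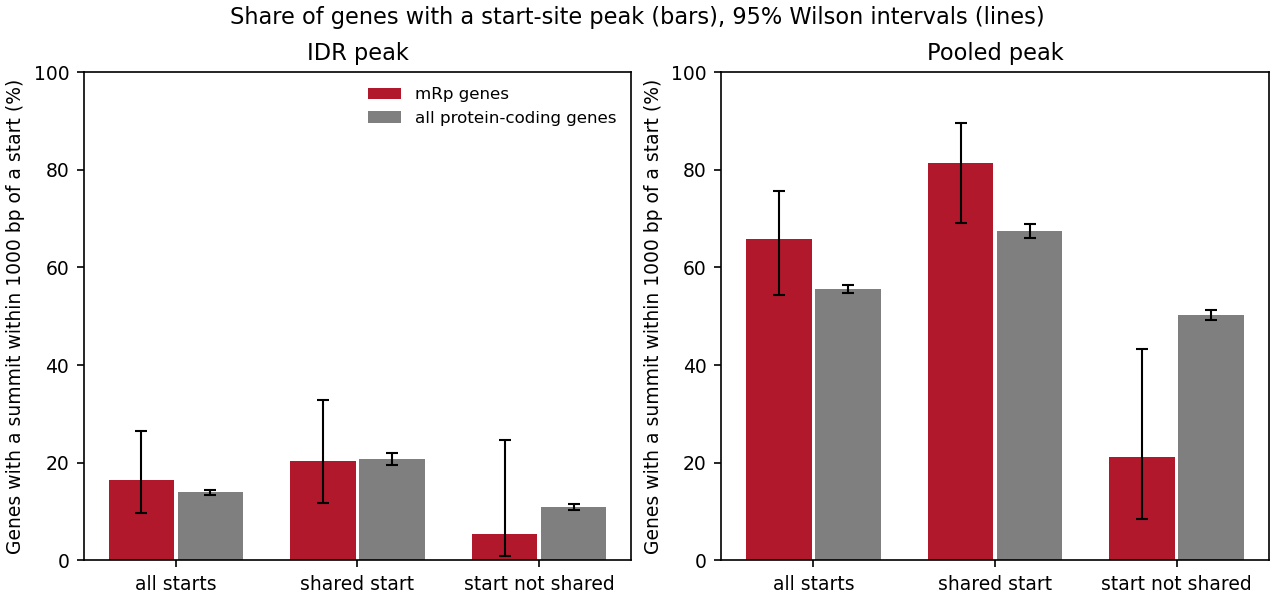
Share of mRp genes (left bar of each pair) and of all protein-coding genes (right bar) with an IDR peak or a pooled peak within 1000 bp of a start site, for all genes and split by whether the start is shared with another protein-coding gene; lines are 95% Wilson intervals. IDR shares of the mRp genes sit beside the background (16.4% and 13.9%), while pooled peaks were at 81.5% of mRp genes with a shared start and 21.1% of those without.

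Most mRp genes share their promoter region with a neighbour. Another protein-coding start lay within 500 bp at 54 of 73 mRp genes (74.0%, 62.9 to 82.7), against 30.9% of all protein-coding genes, and at 53 of the 73 (72.6%) a neighbour on the opposite strand points away from the mRp gene, in a head-to-head arrangement, against 26.8%. The median gap to the shared start was 260.5 bp at mRp genes and 209 bp over all genes with a shared start. A summit in such a gap is within reach of both genes and cannot be assigned to either.

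Nearly all mRp genes with a start-site peak had a shared start. With a shared start, 11 of 54 mRp genes had an IDR peak (20.4%, 11.8 to 32.9), against 20.7% of all such genes. Without one, only mRpL41 of 19 did (5.26%, 0.935 to 24.6), against 10.8%. In the pooled list the split was wider: 44 of 54 mRp genes with a shared start had a peak (81.5%, 69.2 to 89.6), against 67.4% of all such genes. Without a shared start 4 of 19 did (21.1%, 8.51 to 43.3), against 50.3%. Those 4 were mRpL4, mRpL40, mRpL41 and mRpS35. The interval of the mRp genes with a shared start lies above its background and that of the mRp genes without lies below it, each in the pooled list only. The difference was not tested.

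Gap width was compared next. Among head-to-head mRp genes an IDR peak was at 4 of 18 with a gap of up to 100 bp, 3 of 15 between 100 and 300 bp and 3 of 20 between 300 and 500 bp, against 19.1%, 20.1% and 21.1% of all genes in those bins. Each background lies inside the interval of its mRp count.

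When each summit was given only to the nearest protein-coding start, fewer mRp genes had a peak. The mRp start was the nearest for an IDR summit at 5 of 73 genes (6.85%, 2.96 to 15.1), against 10.5% of all protein-coding genes, and for a pooled summit at 23 of 73 (31.5%, 22.0 to 42.9), against 46.6%. Of the genes that had a peak, 5 of 12 mRp genes kept an IDR peak (41.7%, 19.3 to 68.0), against 75.9% of all genes. A pooled peak was kept at 23 of 48 (47.9%, 34.5 to 61.7), against 83.8%. Among shared starts alone, 4 of 11 mRp genes with an IDR peak kept it (36.4%, 15.2 to 64.6), against 60.0% of all such genes, which lies inside the interval. In the pooled list, 19 of 44 mRp genes with a shared start and a peak kept it (43.2%, 29.7 to 57.8), against 67.2% of all such genes. Of the cytoplasmic ribosomal protein genes with an IDR peak, 71 of 74 kept it.

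Summits lay upstream of the mRp starts. The highest pooled summit was upstream of the nearest start of the gene at 42 of 48 mRp genes (87.5%, 75.3 to 94.1), against 68.0% of all protein-coding genes with a pooled peak. The groups differ in arrangement: 44 of these 48 mRp genes had a shared start, against 2905 of the 7751 protein-coding genes. The upstream share was not split by that, so it cannot be read as particular to mRp genes. At 31 of 43 head-to-head mRp genes with a pooled peak (72.1%, 57.3 to 83.3) the highest pooled summit fell between the mRp start and that of the neighbour. The share of all such genes was 51.8% (1305 of 2518). This comparison was not matched for gap width, and the median gap to a shared start was wider at mRp genes (260.5 against 209 bp). At the 12 mRp genes with an IDR peak the median distance from summit to start was 157.5 bp, against 176.5 bp over all protein-coding genes with one and 23 bp at the cytoplasmic ribosomal protein genes. Of the 48 summits, 29 were intergenic, 15 were in a 5′ UTR, 2 in an intron, 1 in a 3′ UTR and 1 in a coding exon.

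**Figure D2:**
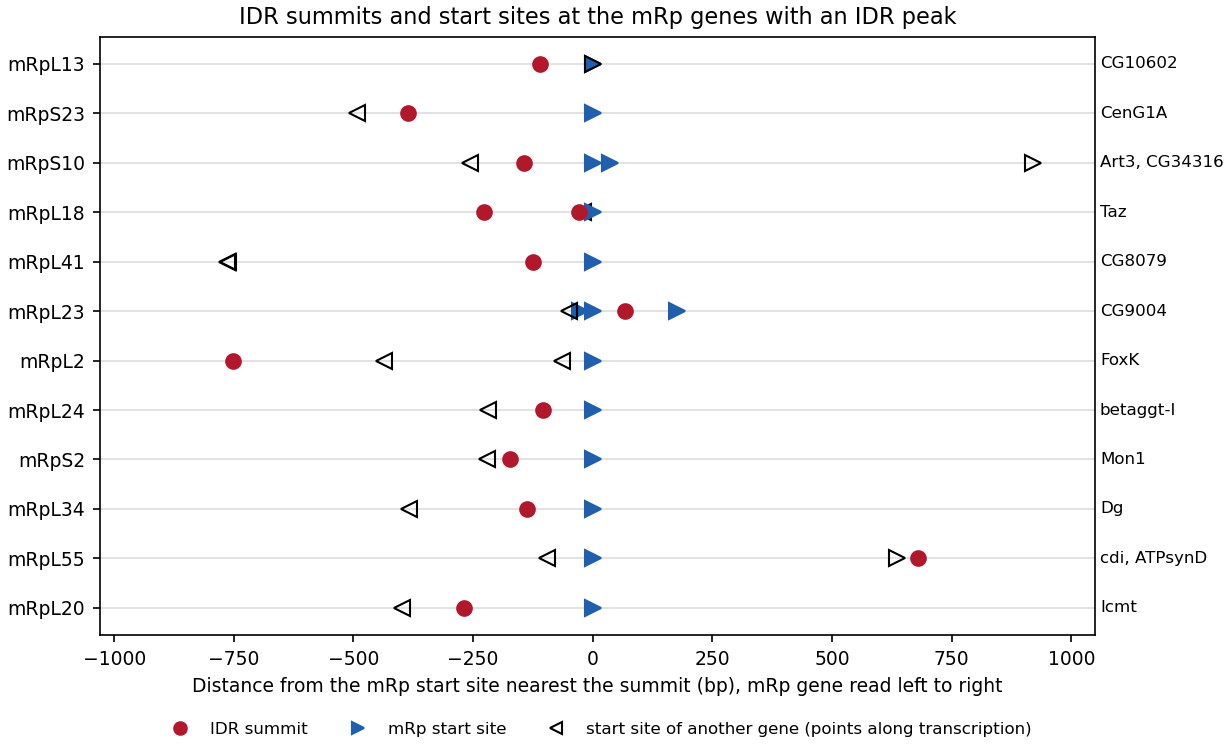
IDR summits (circles) and start sites of the 12 mRp genes with an IDR peak, placed by distance in bp from the mRp start nearest to the highest summit, with each mRp gene read left to right; filled triangles are mRp starts and open triangles starts of the genes named at the right. Most summits sit to the left of the mRp start, several between it and an open triangle, and those of mRpL2 and mRpL55 lie nearest to FoxK and cdi.

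The 12 genes with an IDR peak spanned ranks 19 to 2787 of the IDR list. By far the highest was mRpL13, whose bacterial relative is an early assembly protein of the large subunit. Its peak (chr2L:18859015-18859580, intergenic) had a pooled signal of 5301, with 3267 in replicate 2 (rank 21) and 2048 in replicate 3 (rank 18). The summit lay 111 bp before the start, which mRpL13 shares base for base with CG10602 on the same strand, and 4 copies of AAGCAGT lay within 100 bp of it, the nearest at 25 bp.

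Next came a pair of small-subunit genes. mRpS23, a mitochondria-specific subunit gene, had a peak at chr2L:13835311-13835629 with a signal of 1585, and of 787 in replicate 2 (rank 109) and 798 in replicate 3 (rank 76). Its summit was 385 bp before the mRpS23 start but 107 bp from that of CenG1A, which encodes an Arf GTPase-activating protein. mRpS10, the relative of a bacterial protein of the small-subunit head, had a peak at chr3R:15229383-15229689 with a signal of 1109 (612 in replicate 2, rank 134, and 503 in replicate 3, rank 121). That summit lay 143 bp from the mRpS10 start and 114 bp from that of Art3, an arginine methyltransferase gene. Both summits are intergenic and lie between divergent starts.

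mRpL18, whose bacterial relative binds 5S rRNA, was the only mRp gene with a pair of IDR summits. The higher, within the interval chr2R:12755864-12756501, had a signal of 762 (436 in replicate 2, rank 186, and 321 in replicate 3, rank 211) and lay 228 bp before the mRpL18 start. The lower, in the same interval, had a signal of 315 (148 and 142 in replicates 2 and 3) and lay 28 bp before the start. Both were in the 5′ UTR of Taz, the tafazzin gene of cardiolipin remodelling, whose start is 20 bp away.

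mRpL41, a mitochondria-specific large-subunit gene, was the only one of the 12 with no other start within 500 bp. Its intergenic peak (chr2R:15217605-15217898) had a signal of 707, with 368 in replicate 2 (rank 225) and 336 in replicate 3 (rank 199), and its summit lay 124 bp before the start. The nearest other protein-coding start, of CG8079, was 762 bp from that of mRpL41. mRpL23, the relative of a bacterial protein at the exit of the peptide tunnel, had a peak inside its own 5′ UTR (chr3L:2373473-2373716, signal 459.6, with 213 in replicate 2, rank 452, and 243 in replicate 3, rank 292). Its summit was 67 bp after 1 of the 3 mRpL23 starts, and CG9004 starts 24 bp from the nearest of them.

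The remaining 6 had signals from 125 to 273. At mRpL2, whose bacterial relative lies near the peptidyl transferase centre, the signal was 273 (146 in replicate 2, rank 823, and 121 in replicate 3, rank 906). Its summit, 751 bp before the mRpL2 start (chr3L:11119904-11120287), fell in an intron of the forkhead gene FoxK, 315 bp from a FoxK start. mRpL24, a further tunnel-side protein in bacteria, had a signal of 245 (129.7 in replicate 2, rank 996, and 110.1 in replicate 3, rank 1065) 104 bp before its start and 114 bp from that of betaggt-I, a geranylgeranyl transferase subunit gene (chr2L:4945273-4945656). Both genes held similar ranks in the replicates.

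mRpS2, a small-subunit gene, differed more between the replicates, with a pooled signal of 189 but 59.6 in replicate 2 (rank 3710) and 127 in replicate 3 (rank 830). Its summit (chr2L:4850399-4850782) was 172 bp before the mRpS2 start and 50 bp from that of Mon1, a gene of endosome maturation. mRpL34 had a signal of 166 (84.6 in replicate 2, rank 1982, and 70.8 in replicate 3, rank 2156), 138 bp before its start and 246 bp from that of Dg, which encodes dystroglycan (chr2R:16098618-16099001).

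The last pair stood just inside the IDR list, whose lowest signal was 124. mRpL55 had a signal of 126, with 89.9 in replicate 2 (rank 1790) and 46.6 in replicate 3 (rank 4523). Its summit was 679 bp after the mRpL55 start, in the 5′ UTR of the kinase gene cdi and 44 bp from the cdi start (chr3R:19094034-19094417), while the divergent neighbour ATPsynD, an ATP synthase subunit gene, starts 95 bp away. mRpL20, whose bacterial relative acts early in large-subunit assembly, had a signal of 125 (71.6 in replicate 2, rank 2648, and 59.0 in replicate 3, rank 2984) 268 bp before its start and 131 bp from that of Icmt, a carboxyl methyltransferase gene (chr3L:13017943-13018326).

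The 8 highest mRp genes without an IDR peak followed closely. Their pooled signals were 121 at mRpL51, 120.5 at mRpS26, 118 at mRpL53, 114 at mRpL16, 107 at mRpL1, 106 at mRpS16, 95.8 at mRpS31 and 92.6 at mRpL40. Some were as even between replicates as the genes above, with ranks in replicates 2 and 3 of 2529 and 2855 at mRpL53, 4052 and 4381 at mRpL1, and 6412 and 4429 at mRpS31. At mRpS26 the rank was 2717 in replicate 2, with no match within 100 bp in replicate 3. Another summit within 1000 bp of its start ranked 2977 in replicate 3. mRpS26 had 2 pooled peaks in that window, and whether this summit belongs to the same site was not examined. Others were less even: mRpL16 had no match in replicate 2. mRpL40 had 53.8 in replicate 2 (rank 4436) and 32.0 in replicate 3 (rank 8429). mRpS16 had 73.6 in replicate 2 (rank 2536) and 25.5 in replicate 3 (rank 12341). At mRpL51 the order was the other way, with 39.9 in replicate 2 (rank 7356) and 69.1 in replicate 3 (rank 2267). The step from mRpL20 to mRpL51, from inside to outside the IDR list, is therefore small on the signal scale.

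**Figure D3:**
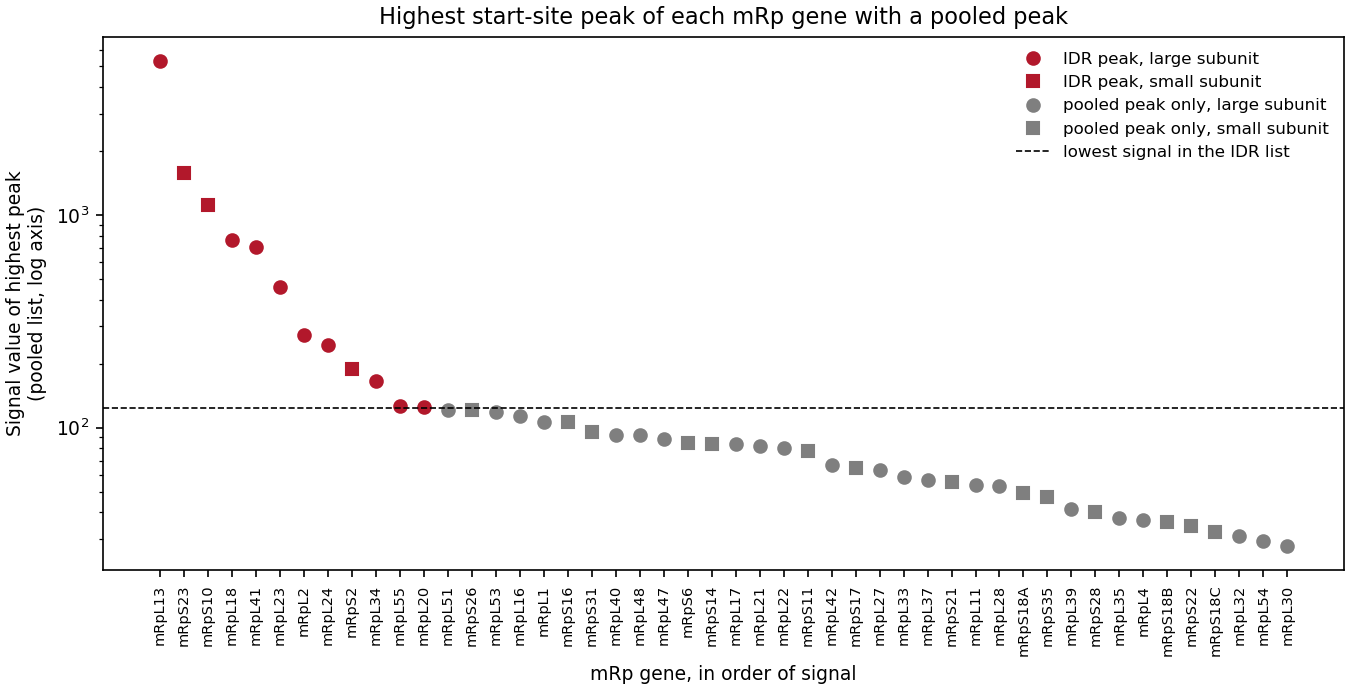
Signal value (pooled list, log axis) of the highest start-site peak of each of the 48 mRp genes with a pooled peak, in order of signal; red marks genes with an IDR peak, grey those with a pooled peak only, circles the large and squares the small subunit. The dashed line is the lowest signal in the IDR list, 124, and the values run from mRpL13 at 5301, well above mRpS23 at 1585, to mRpL30 at 27.8.

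Over the 48 mRp genes with a pooled peak the median signal was 83.7, with a range of 27.8 to 5301, against a median of 72.4 over all protein-coding genes with one. Over the 12 with an IDR peak it was 366, against 200.0 over all protein-coding genes with an IDR peak. By rank of the highest start-site peak, 2 mRp genes (2.74% of the 73) stood among ranks 1 to 100, against 0.473% of all protein-coding genes. Another 6 stood in ranks 101 to 1000 (8.22%, against 5.03%) and 4 in ranks 1001 to 2821 (5.48%, against 8.40%). At counts this small the high ranks rest on a few genes, mRpL13 and mRpS23 in the top bin.

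The remaining 25 mRp genes had no pooled peak within 1000 bp. In order of symbol the first 10 were mRpL10, mRpL12, mRpL14, mRpL15, mRpL19, mRpL3, mRpL36, mRpL38, mRpL43 and mRpL44. Of the 25, 15 had no shared start and 10 had one. For 16 of the 25 neither replicate list held a summit within 1000 bp either, for 7 only 1 list did and for 2 both did.

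Both subunits and both kinds of number were represented. An IDR peak was at 9 of 47 mRpL genes (19.1%, 10.4 to 32.5) and 3 of 26 mRpS genes (11.5%, 4.0 to 29.0), and a pooled peak at 31 of 47 (66.0%) and 17 of 26 (65.4%). Of the genes with a number that bacteria also use (up to 36 in the large and 21 in the small subunit), 9 of 42 had an IDR peak (21.4%, 11.7 to 35.9) and 31 of 42 a pooled peak (73.8%, 58.9 to 84.7). Of those with a higher, mitochondria-specific number, 3 of 31 had an IDR peak (9.68%, 3.35 to 24.9) and 17 of 31 a pooled peak (54.8%, 37.8 to 70.8). The intervals overlap in every pair. Over all protein-coding genes the shares were 13.9% for an IDR peak and 55.6% for a pooled peak. The pooled share lies below the interval of the genes with a number that bacteria also use. For each other count by subunit or number, the background lies inside the interval. These splits were not tested. By chromosome arm, IDR peaks were at 4 of 12 mRp genes on 2L (33.3%, 13.8 to 60.9), against 12.9% of all protein-coding genes there, and at 3 of 12 on 2R, against 14.1%. They were at 3 of 17 on 3L, against 14.9%, at 2 of 21 on 3R, against 14.6%, and at 0 of 11 on X, against 12.8%. The 2L background lies just below its mRp interval, which rests on 4 genes, and no arm was tested. The 0 of 11 allows a share of up to 27.3%, taking 3 genes as the limit of a count of 0 (the Wilson bound is 25.9%).

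The replicates held the IDR sites in common. All 12 mRp genes with an IDR peak had a summit within 100 bp of it in each replicate list, which the IDR step itself favours. Of the 36 with a pooled peak only, 19 had a match in both lists, 16 in 1 and 1 in neither. Taking the 2821 highest peaks of each replicate, 14 of 73 mRp genes had 1 in replicate 2 (19.2%), against a background of 14.3% of all protein-coding genes. In replicate 3, 12 of 73 had 1 (16.4%), against 14.1%. The 9 genes in both sets were mRpL2, mRpL13, mRpL18, mRpL23, mRpL24, mRpL34, mRpL41, mRpS10 and mRpS23, all with an IDR peak. mRpL20, mRpL53, mRpL55, mRpS16 and mRpS26 were in that of replicate 2 only, and mRpL21, mRpL51 and mRpS2 in that of replicate 3 only.

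**Figure D4:**
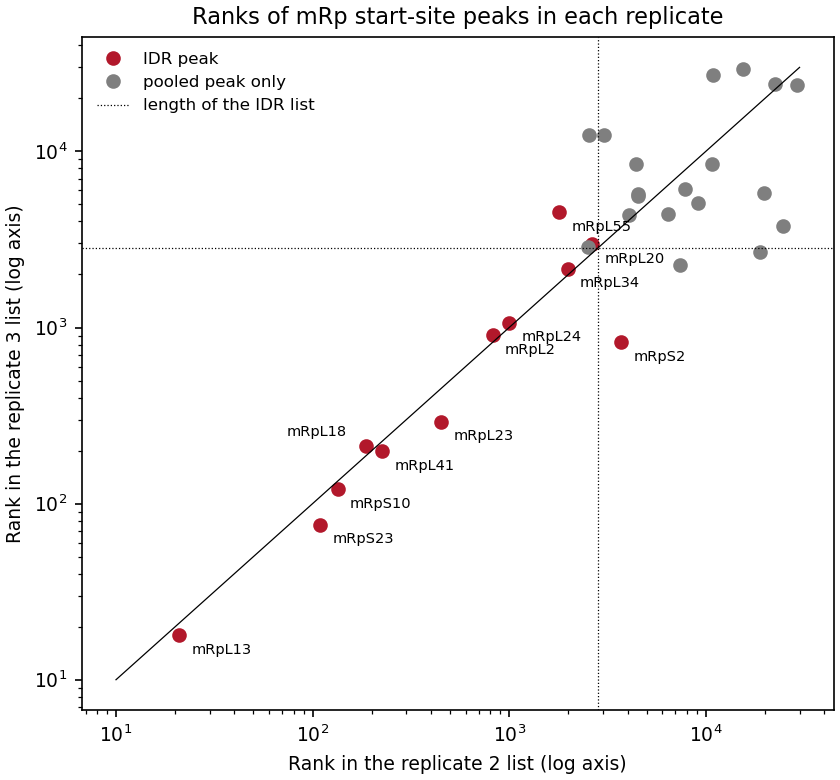
Rank of the matched peak in the replicate 2 list (horizontal, log axis) against the replicate 3 list (vertical, log axis) for the mRp genes matched in both, red with an IDR peak and grey with a pooled peak only; the solid line is equality and the dotted lines the length of the IDR list, 2821. The highest peaks, from mRpL13 to mRpL24, lie near the line, while mRpS2 (ranks 3710 and 830) and mRpL55 (ranks 1790 and 4523) lie away from it.

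The word AAGCAGT was not general at mRp promoters. Within 100 bp of the summit it was present at 2 of 13 IDR summits at mRp starts (15.4%, those of mRpL13 and mRpL18), against 13.6% of IDR summits at all protein-coding starts. It was at 0 of 44 mRp summits among pooled peaks outside the IDR intervals, against 2.92% of such start-site summits. Over the promoter, taken as 250 bases before to 50 after the most upstream start and searched on both strands like all words here, it was at 4 of 73 mRp genes (5.48%), against 4.55% of all protein-coding genes. Those 4 were mRpL13 and mRpS10, which have an IDR peak, and mRpL42 and mRpS22, which do not. The mRpS10 copy lies 13 bp after the start and so outside the interval printed above.

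A different word was frequent at mRp starts. CAGCTG, an E-box (a core bound by basic helix-loop-helix factors), was in the promoter of 40 of 73 mRp genes (54.8%, 43.4 to 65.7), against 17.7% of all protein-coding genes and 24.3% of those with a shared start. The copy nearest the start lay within 50 bp of it at 35 of the 40 (87.5%), with a median position 7 bp after the start, against 54.2% of the 2467 protein-coding promoters that hold the word, whose median position was 42 bp before it (-42). It was in the promoter of 8 of 12 mRp genes with an IDR peak (66.7%, 39.1 to 86.2) and 32 of 61 without (52.5%, 40.2 to 64.5), and these intervals overlap. Under the summits, within 100 bp, it was at 2 of 13 IDR summits at mRp starts (15.4%), against 12.1% at all protein-coding starts, and at 10 of 44 mRp summits outside the IDR list (22.7%, 12.8 to 37.0), against 13.0%.

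To show how these copies sit at the starts, 30 bases are given for 6 of the 8 genes with an IDR peak and this word, from the same source and direction as above. Capitals mark CAGCTG.
mRpL13, chr2L:18859193-18859222, minus strand: cacactgtctgcCAGCTGagaaattatttt
mRpL24, chr2L:4945324-4945353, minus strand: ttcagttctcaaCAGCTGattgcaagccgc
mRpS2, chr2L:4850413-4850442, minus strand: aacactacccacCAGCTGtttaccaaaatc
mRpL2, chr3L:11120845-11120874, plus strand: aacgccgcgtaaCAGCTGttttcagccgca
mRpL23, chr3L:2373715-2373744, minus strand: gtggttgacaatCAGCTGtttaaaacaagt
mRpL55, chr3R:19094874-19094903, minus strand: cggtcacactatCAGCTGcctggcagcaaa
Measured from the most upstream start of the gene, the centre of the word lay 8 bp before it at mRpS2 and 25 bp before it at mRpL23. It lay after the start at the other 4, by 13 bp at mRpL2, 17 bp at mRpL55, 23 bp at mRpL24 and 41 bp at mRpL13. The other IDR genes with the word, mRpL18 and mRpL41, are not printed, and there its centre lay 65 bp and 6 bp before the start.

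The remaining promoter words were counted in the same way. The DRE (TATCGATA, the DNA replication-related element) was in 15 of 73 mRp promoters (20.5%, 12.9 to 31.2), against 9.37% of all protein-coding promoters and 16.1% of those with a shared start. Within 100 bp of the summit it was at 0 of 13 IDR summits at mRp starts, against 4.97% at all protein-coding starts, and at 4 of 44 mRp summits outside the IDR list (9.09%, 3.59 to 21.2), against 3.05%. CGATA, which lies inside the DRE, was in 43 of 73 (58.9%), against 47.5% and 60.1%. Within 100 bp of the summit it was at 6 of 13 IDR summits at mRp starts (46.2%, 23.2 to 70.9), against 32.1%. Outside the IDR list it was at 21 of 44 mRp summits (47.7%, 33.8 to 62.1), against 29.5%. The core promoter elements Motif 1, Motif 6 and Motif 7 were in 6, 3 and 17 of the 73 (8.22%, 4.11% and 23.3%), against 4.50%, 2.23% and 9.29% of all protein-coding promoters and 8.10%, 4.11% and 16.3% of those with a shared start. The 1 Motif 6 copy near an IDR summit lay 12 bp from that of mRpL41. Motif 7 was near 0 of 13 IDR summits at mRp starts, against 6.69%. Outside the IDR list it was at 8 of 44 mRp summits (18.2%, 9.51 to 32.0), against 4.76%. At those summits the backgrounds of the DRE, CGATA and Motif 7 lie below the mRp intervals. These summit counts were not split by shared start, and no difference was tested. The word of the TCT initiator, known from cytoplasmic ribosomal protein genes, is CTTT between 2 pyrimidines on each side. It was in 9 of 73 mRp promoters (12.3%, 6.62 to 21.8), against 24.3% of all protein-coding promoters and 21.9% of those with a shared start. Both of those shares lie above the mRp interval. These counts take the word anywhere in the promoter and on either strand, so they do not count initiators at a start. Among mRp genes the copy nearest a start, at mRpS2, lay 15 bp after it.

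Other genes of mitochondrial gene expression were counted by a written list of 45, and 5 had an IDR peak (11.1%, 4.84 to 23.5, beside the background of 13.9%). A pooled peak was at 25 (55.6%, 41.2 to 69.1), beside a background that was also 55.6%. The 5 were PolrMT, the mitochondrial RNA polymerase gene (signal 2349, rank 64, summit 14 bp after the start), PNPase, of mitochondrial RNA decay (1420, rank 101, 74 bp after), mtSSB, the mitochondrial single-stranded DNA-binding protein gene (478, rank 343, 275 bp before), Lon, a matrix protease gene (333, rank 577, 109 bp before), and LeuRS-m, a mitochondrial leucyl-tRNA synthetase gene (265, rank 829, 906 bp before). All but mtSSB share the start with another protein-coding gene. The neighbours are CG14339 at PolrMT (gap 167 bp), Gprk2 at PNPase (207 bp), PIG-F at Lon (256 bp) and Dhc64C at LeuRS-m (166 bp). There the count does not say which of the genes a peak belongs to. By role, IDR peaks were at 4 of 16 genes of mitochondrial transcription and genome maintenance, 1 of 15 mitochondrial aminoacyl-tRNA synthetase genes and 0 of 11 mitochondrial translation factor genes. They were also at 0 of 3 mitochondrial ribosomal protein genes under other symbols, tko, bonsai and CRIF, of which tko (73.0) and CRIF (58.6) had a pooled peak. As at mRpL13 and mRpS23, the few high signals stood beside many genes without an IDR peak.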

How the data were processed

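Peaks came from 2 ChIP-seq libraries of 1 group. The authors deposited 4 narrowPeak lists on assembly dm6, per the file headers and labels: 1 per replicate, 1 pooled and 1 IDR list. The signal in column 7, as deposited, was written by the authors' peak caller and was used only within a list. The deposited −log10 q-value (column 9) ranked peaks in 1 alternative, and the deposited summit offset (column 10, in bp from the peak start) gave summit positions. Aligner, peak caller, IDR threshold and depth are not given in the sources used here.

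Genes and start sites came from Ensembl release 115 (BDGP6.54) and bases were read from RefSeq's copy of that assembly, with unchanged coordinates. Replicate peaks were matched by summits within 100 bp. No test was run: shares have 95% Wilson intervals (Python 3.11.15, scipy 1.17.1, numpy 2.4.6), beside the share over all protein-coding genes. The counting was tested on simulated data, where 200 of 200 planted peaks and 100 of 100 planted words were recovered. Named genes were all mRp genes with an IDR peak, the 8 highest without, the first 10 by symbol without a pooled peak, and listed genes with an IDR peak. Of the patterns in the written list, 13 matched no gene. Members, lists and words were chosen with earlier results of these data known. Alternatives varied the windows, the peak set, the assignment to the nearest start and the replicate list. Figures used matplotlib 3.10.9.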

Additional observations from a re-analysis of the deposited data

How the results depend on the processing

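Of 74 alternative values under 14 settings, 60 stayed within 1.5 times the count, or within the spread, and 14 moved. The 60 include values that say nothing about stability. Ranking by q-value returned the same counts, and the q-value was the same at every IDR peak. Joining genes with shared starts into 1 unit also changed nothing, because no mRp genes were joined to each other. Giving each summit to the nearest protein-coding start moved most: 5 mRp genes had an IDR peak, against 12 in the report, and 23 a pooled one, against 48, with 4 IDR peaks at shared starts, 5 at mRpL and 0 at mRpS genes. The IDR count at shared starts, 11 in the report, was 7 with a 200 bp window or with the highest 1410 of the IDR peaks, and 5 when a shared start had to lie within 200 bp. The count without a shared start, 1 in the report, was 2 with a 2000 bp window or when only opposite-strand neighbours counted, 7 with sharing within 200 bp and 0 within 1000 bp. The change with the highest 1410 IDR peaks comes from the peak set: some of the 11 genes had only IDR peaks of lower rank. The other changes follow from how windows, sharing and the assignment of summits are defined. With 1 replicate's own list in place of the joint lists, the IDR-type count was 12 to 14 and the pooled count 47 to 49. The median signal of mRp genes, 83.7, was 40.3 to 45.1 there, on the scale of those lists. No paired analysis was possible because the series holds 1 group. With 2 replicates, unknown depth and pooled peaks of fixed number, low-ranked peaks can include background.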
